A study of Mus musculus with 12 samples.

Results

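The 10 genes described here build or control the junctions between epithelial cells. They are the claudins Cldn3, Cldn4, Cldn6 and Cldn7, the tight junction protein occludin (Ocln), E-cadherin (Cdh1), the epithelial adhesion molecule Epcam, the splicing regulators Esrp1 and Esrp2, and the transcription factor Grhl2. They were chosen by name for these roles, with earlier results of these tumors known, and all 10 were found among the 24060 gene rows. The study sequenced RNA from 12 tumors with rhabdoid features that had arisen in mice of the genotype P0-CreC;Smarcb1flox/flox, kept on the FVB/N background. In these mice the P0 promoter drives Cre recombinase in early neural crest cells and their Schwann cell descendants, and Cre removes both floxed copies of Smarcb1, a core subunit of the SWI/SNF chromatin remodeling complex. The tumors arose without treatment and came from retro-orbital tissue (4 tumors), the cheek (3 tumors), the meninges (3 tumors), the vestibular nerve (1 tumor) and the trigeminal nerve (1 tumor). All 12 carried the same alleles. No normal tissue and no tumor with intact Smarcb1 was analysed here, and ages were not used. Retro-orbital tumor 3 and the trigeminal nerve tumor share the first part of their identifier, as do cheek tumor 1 and meninges tumor 1, and cheek tumors 2 and 3. Whether such tumors came from the same mouse is not stated, so the tests below treat them as independent, and their p-values cover only the spread between these tumors.

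Claudins are membrane proteins that form the strands of tight junctions and set which ions pass between cells, and occludin joins them there. E-cadherin holds neighboring epithelial cells together at adherens junctions. Grainyhead-like and Esrp proteins keep the epithelial state, the former at the promoters of junction genes and the latter by choosing epithelial exons, whereas Zeb and Snail family repressors bind E-boxes in such promoters during the epithelial-to-mesenchymal transition. Cldn6 is a claudin of embryonic epithelia that is mostly silent in adult tissue. Neural crest cells lose epithelial junctions when they leave the neural tube, and human rhabdoid tumors are known for mixed neural, mesenchymal and epithelial marker expression. For mouse tumors of the present genotype, however, the paper reported no epithelial differentiation in tissue sections and no staining for cytokeratin proteins. Whether the stained tumors were among the sequenced ones is not stated.

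The promoters of 4 junction genes are shown. Of the genes with a RefSeq window, Epcam, Cldn3 and Cldn4 varied most between the tumors, and Cldn6 was highest in the nerve tumors. Each runs from 250 bases before to 50 bases after the RefSeq start site (GRCm38.p6). Capitals mark CACCTG, the E-box core bound by Zeb and Snail proteins, read on either strand (CAGGTG on the printed strand is a match on the other strand).
Cldn6, chr17:23679115-23679414, plus strand: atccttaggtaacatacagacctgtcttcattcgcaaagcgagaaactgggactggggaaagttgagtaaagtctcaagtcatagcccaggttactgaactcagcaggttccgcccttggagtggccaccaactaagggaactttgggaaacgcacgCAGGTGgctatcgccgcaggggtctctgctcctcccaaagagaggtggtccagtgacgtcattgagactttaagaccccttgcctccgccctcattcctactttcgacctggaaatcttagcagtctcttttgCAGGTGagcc
Epcam, chr17:87635729-87636028, plus strand: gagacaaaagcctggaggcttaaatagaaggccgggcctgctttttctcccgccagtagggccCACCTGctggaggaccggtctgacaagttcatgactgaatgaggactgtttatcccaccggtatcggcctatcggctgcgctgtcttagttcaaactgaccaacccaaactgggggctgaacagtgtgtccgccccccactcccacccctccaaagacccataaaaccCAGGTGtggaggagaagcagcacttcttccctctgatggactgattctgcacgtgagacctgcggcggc
Cldn3, chr5:134985964-134986263, plus strand: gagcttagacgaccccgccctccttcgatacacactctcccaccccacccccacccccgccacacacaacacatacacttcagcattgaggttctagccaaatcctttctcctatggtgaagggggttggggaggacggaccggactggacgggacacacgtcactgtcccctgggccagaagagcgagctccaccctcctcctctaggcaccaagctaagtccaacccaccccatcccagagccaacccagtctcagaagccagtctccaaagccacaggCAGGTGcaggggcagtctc
Cldn4, chr5:134946885-134947184, minus strand: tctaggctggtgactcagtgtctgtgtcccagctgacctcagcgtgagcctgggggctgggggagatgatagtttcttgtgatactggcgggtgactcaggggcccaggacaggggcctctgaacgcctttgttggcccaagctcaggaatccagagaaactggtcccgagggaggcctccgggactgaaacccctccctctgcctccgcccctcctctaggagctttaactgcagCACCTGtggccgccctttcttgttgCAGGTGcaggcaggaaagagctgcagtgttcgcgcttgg
The Cldn6, Epcam and Cldn4 windows held 2 matches each and the Cldn3 window held 1. RefSeq windows were at hand for 6 of the 10 genes, 8 windows in all, and 7 of these windows and all 6 genes (Cldn3, Cldn4, Cldn6, Cldn7, Epcam and Ocln) had a match. The windows of Ocln overlap, and the same match is counted in both. Over all 32851 windows of this length the share with a match was 20.2%, and 2.88% had 2 or more. Of all 27025 genes with a window, 22.6% had a match. The palindrome AACCGGTT, a Grainyhead-like consensus, was in 0.146% of all windows and in none of the 8. Cdh1, Esrp1, Esrp2 and Grhl2 had no entry. These matches describe the letters of the sequence and say nothing of binding in the tumors.

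Levels are RPKM, fragments scaled by transcript length and by the number of mapped reads, so that genes as well as tumors can be compared. As worked out from the RPKM values, between 13206168 and 57128422 fragments stood behind a tumor, and 3 fragments of Cldn6 were worth between 0.0349 and 0.151 RPKM. Smarcb1 itself (chr10:75896769-75921617, minus strand) was at 2.90, 4.64, 4.72 and 6.001 RPKM in retro-orbital tumors 1 to 4, at 4.58, 3.68 and 3.20 RPKM in cheek tumors 1 to 3, and at 5.15, 4.73 and 6.31 RPKM in meninges tumors 1 to 3. It was at 1.70 RPKM in the vestibular nerve tumor and at 2.94 RPKM in the trigeminal nerve tumor. A value per gene cannot show whether this RNA came from the deleted allele or from other cells in the tumor, and with no intact sample it checks the labels only in part.

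The 10 genes were not at one level in these tumors. In the vestibular nerve tumor and in meninges tumor 1 all 10 reached 1 RPKM, in retro-orbital tumor 3, cheek tumor 1 and the trigeminal nerve tumor 9 did, and in meninges tumor 3 it was 7. In the other tumors the number was 5 in meninges tumor 2, 4 in retro-orbital tumor 4 and in cheek tumor 3, 2 in retro-orbital tumors 1 and 2, and 1 in cheek tumor 2. The summed level of the 10 genes ran from 5.16 RPKM in retro-orbital tumor 2 to 754 RPKM in the vestibular nerve tumor. Of the 10 genes, 6 had their highest level in the vestibular nerve tumor (Cldn3, Cldn6, Ocln, Epcam, Grhl2 and Esrp1, the last level with cheek tumor 1), 3 in retro-orbital tumor 3 (Cldn4, Cldn7 and Cdh1) and 1 in meninges tumor 1 (Esrp2). Retro-orbital, cheek and meninges tumors each included tumors with high and with low levels. Because whole tumors were measured, fewer cells of a type and less RNA per cell cannot be told apart.

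**Figure D1:**
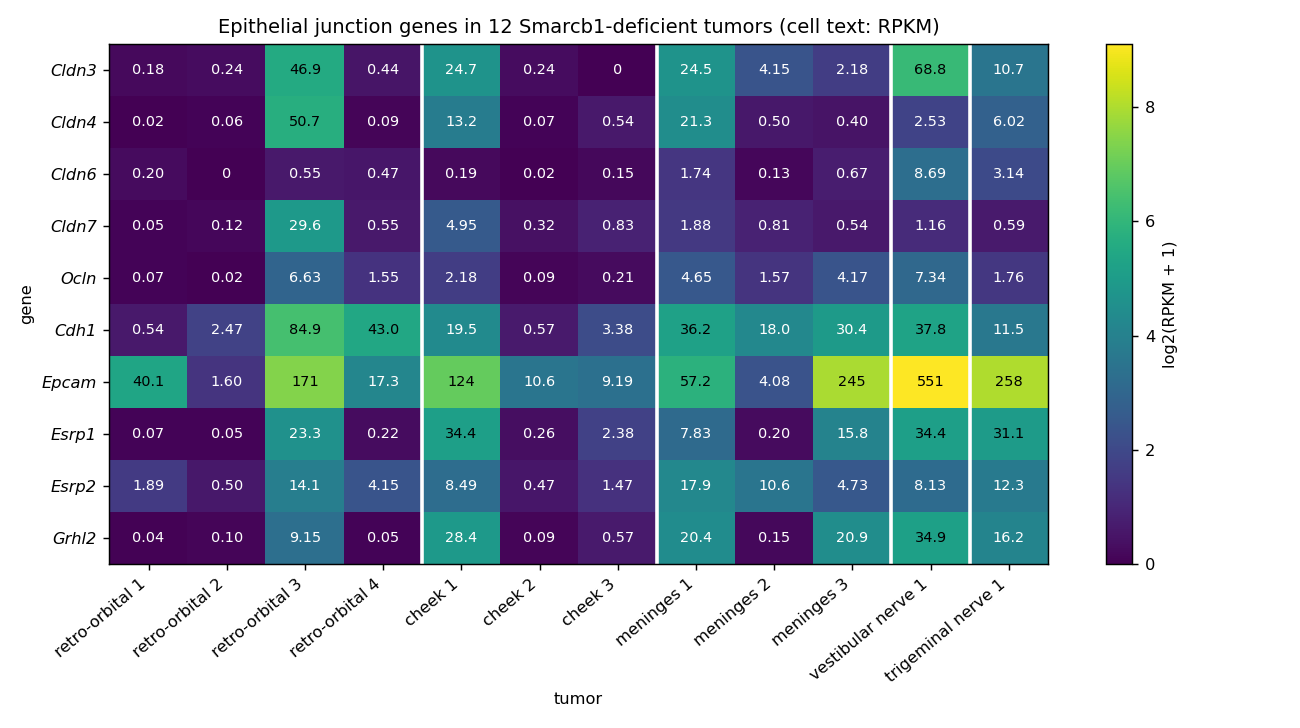
Level of each of the 10 genes (rows) in each of the 12 tumors (columns, white lines between locations), with color for log2(RPKM + 1) and the RPKM printed in each cell. The vestibular nerve tumor has the highest level of 6 genes, and retro-orbital tumor 2 and cheek tumor 2 are dark in almost every row.

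Cldn6 (chr17:23679249-23682446, plus strand) was low in most tumors and highest in the vestibular and trigeminal nerve tumors. It was at 0.196, 0, 0.546 and 0.467 RPKM in retro-orbital tumors 1 to 4, at 0.187, 0.0204 and 0.151 RPKM in cheek tumors 1 to 3, and at 1.74, 0.126 and 0.671 RPKM in meninges tumors 1 to 3. The vestibular nerve tumor had 8.69 RPKM and the trigeminal nerve tumor 3.14 RPKM. Thus 3 of the 12 tumors reached 1 RPKM, and both nerve tumors were above all 10 others. Behind these values were 372 fragments in the vestibular nerve tumor (95% exact Poisson interval of the level 7.83 to 9.62 RPKM) and 100 in the trigeminal nerve tumor (2.55 to 3.81 RPKM), against no fragment in retro-orbital tumor 2 (which allows up to 0.0678 RPKM), 1 in cheek tumor 2 and 3 in cheek tumor 3. The intervals cover counting error only, and with 1 tumor at each nerve site the difference from the other locations has no replicate check. Even at its highest, Cldn6 was at the 68.0th percentile of all gene rows of that tumor, far below Cldn3 at the 95.9th and Epcam at the 99.7th.

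Cldn9 lies 137 bases beyond the end of Cldn6 on the other strand (chr17:23682584-23684026) and encodes a close relative. It was at 4.20 RPKM in the vestibular nerve tumor and at or below 0.342 RPKM in each of the 11 others, including 0.131 RPKM in the trigeminal nerve tumor. The vestibular nerve tumor was therefore the only one of the 12 with both neighbors above 1 RPKM. The library kit keeps strand, but whether strand was used in counting is not stated, and reads shared between such similar genes would have been dropped as not unique.

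Cldn3 (chr5:134986214-134987472, plus strand) and Cldn4 (chr5:134945119-134946934, minus strand) are neighbors 39279 bases apart, and both encode claudins that are also receptors of a Clostridium toxin. Cldn3 was at 0.175, 0.242, 46.9 and 0.442 RPKM in retro-orbital tumors 1 to 4, at 24.7, 0.243 and 0 RPKM in cheek tumors 1 to 3, at 24.5, 4.15 and 2.18 RPKM in meninges tumors 1 to 3, at 68.8 RPKM in the vestibular nerve tumor and at 10.7 RPKM in the trigeminal nerve tumor. Cldn4 was at 0.0204, 0.0563, 50.7 and 0.0937 RPKM in retro-orbital tumors 1 to 4, at 13.2, 0.0677 and 0.544 RPKM in cheek tumors 1 to 3, at 21.3, 0.504 and 0.403 RPKM in meninges tumors 1 to 3, at 2.53 RPKM in the vestibular nerve tumor and at 6.02 RPKM in the trigeminal nerve tumor. No fragment of Cldn3 was found in cheek tumor 3, which allows up to 0.18 RPKM. Retro-orbital tumor 3, cheek tumor 1 and meninges tumor 1 were high for both genes, with a Cldn3 to Cldn4 ratio of 0.924, 1.87 and 1.15. In the vestibular nerve tumor that ratio was 27.2, so the tumor with the most Cldn3 had little of its neighbor. It was 8.24 and 5.40 in meninges tumors 2 and 3 and 1.77 in the trigeminal nerve tumor, and in the remaining tumors both genes were below 1 RPKM.

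Cldn7 (chr11:69964779-69967885, plus strand), a claudin that binds Epcam at the lateral membrane, was at 0.0508, 0.117, 29.6 and 0.551 RPKM in retro-orbital tumors 1 to 4 and at 4.95, 0.316 and 0.834 RPKM in cheek tumors 1 to 3. It was at 1.88, 0.811 and 0.541 RPKM in meninges tumors 1 to 3, at 1.16 RPKM in the vestibular nerve tumor and at 0.585 RPKM in the trigeminal nerve tumor. Its highest level, in retro-orbital tumor 3, was 42.3 times its median over the tumors, and the 3 tumors with the most Epcam had no more than 1.16 RPKM of it. Ocln (chr13:100496507-100552718, minus strand) was low in retro-orbital tumors 1 and 2 (0.0694 and 0.0213 RPKM) and in cheek tumors 2 and 3 (0.0864 and 0.214 RPKM). It was at 6.63 and 1.55 RPKM in retro-orbital tumors 3 and 4, at 2.18 RPKM in cheek tumor 1, at 4.65, 1.57 and 4.17 RPKM in meninges tumors 1 to 3, at 7.34 RPKM in the vestibular nerve tumor and at 1.76 RPKM in the trigeminal nerve tumor. All 3 meninges tumors and both nerve tumors thus reached 1 RPKM of Ocln, as 2 of 4 retro-orbital and 1 of 3 cheek tumors did.

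Epcam and Cdh1 are both used as markers of epithelium, yet they did not rank the tumors alike. Epcam (chr17:87635979-87651129, plus strand) was at 40.1, 1.60, 171 and 17.3 RPKM in retro-orbital tumors 1 to 4, at 124, 10.6 and 9.19 RPKM in cheek tumors 1 to 3, at 57.2, 4.08 and 245 RPKM in meninges tumors 1 to 3, at 551 RPKM in the vestibular nerve tumor and at 258 RPKM in the trigeminal nerve tumor. It was the only one of the 10 genes at 1 RPKM or more in all 12 tumors. Cdh1 (chr8:106603351-106670246, plus strand) was at 0.535, 2.47, 84.9 and 43.0 RPKM in retro-orbital tumors 1 to 4, at 19.5, 0.570 and 3.38 RPKM in cheek tumors 1 to 3, at 36.2, 18.02 and 30.4 RPKM in meninges tumors 1 to 3, at 37.8 RPKM in the vestibular nerve tumor and at 11.5 RPKM in the trigeminal nerve tumor. Retro-orbital tumor 1 had Epcam without much Cdh1, a ratio of 74.98. The ratio was also above 10 in the trigeminal nerve tumor (22.5), cheek tumor 2 (18.6) and the vestibular nerve tumor (14.6), of which both nerve tumors had more than 10 RPKM of Cdh1. In retro-orbital tumors 2 and 4 and in meninges tumor 2 Cdh1 was instead the higher of the pair, 1.55, 2.48 and 4.42 times Epcam.

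The related splicing regulators Esrp1 and Esrp2 also parted in some tumors. Esrp1 (chr4:11331933-11386783, minus strand) was at 0.0744, 0.0514, 23.3 and 0.220 RPKM in retro-orbital tumors 1 to 4, at 34.4, 0.263 and 2.38 RPKM in cheek tumors 1 to 3, at 7.83, 0.201 and 15.8 RPKM in meninges tumors 1 to 3, at 34.4 RPKM in the vestibular nerve tumor and at 31.1 RPKM in the trigeminal nerve tumor. Esrp2 (chr8:106130319-106136974, minus strand) was at 1.89, 0.496, 14.1 and 4.15 RPKM in retro-orbital tumors 1 to 4, at 8.49, 0.470 and 1.47 RPKM in cheek tumors 1 to 3, at 17.9, 10.6 and 4.73 RPKM in meninges tumors 1 to 3, at 8.13 RPKM in the vestibular nerve tumor and at 12.3 RPKM in the trigeminal nerve tumor. Meninges tumor 2 carried almost only Esrp2, 52.6 times its level of Esrp1, and retro-orbital tumors 1 and 4 had 25.4 and 18.9 times more Esrp2 than Esrp1. In the vestibular nerve tumor and in cheek tumor 1 Esrp1 was 4.24 and 4.06 times Esrp2.

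Grhl2 (chr15:37233036-37363569, plus strand) was either present or nearly absent. It was at 0.0448, 0.103 and 0.0539 RPKM in retro-orbital tumors 1, 2 and 4, at 0.0930 and 0.566 RPKM in cheek tumors 2 and 3, and at 0.146 RPKM in meninges tumor 2. In the remaining tumors it was at 9.15 RPKM (retro-orbital tumor 3), 28.4 RPKM (cheek tumor 1), 20.4 and 20.9 RPKM (meninges tumors 1 and 3), 34.9 RPKM (vestibular nerve) and 16.2 RPKM (trigeminal nerve). No tumor lay between 0.566 and 9.15 RPKM. The 3 tumors in which Esrp2 most exceeded Esrp1 were all at the low level of Grhl2, among them retro-orbital tumor 1 with its 40.1 RPKM of Epcam.

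**Figure D2:**
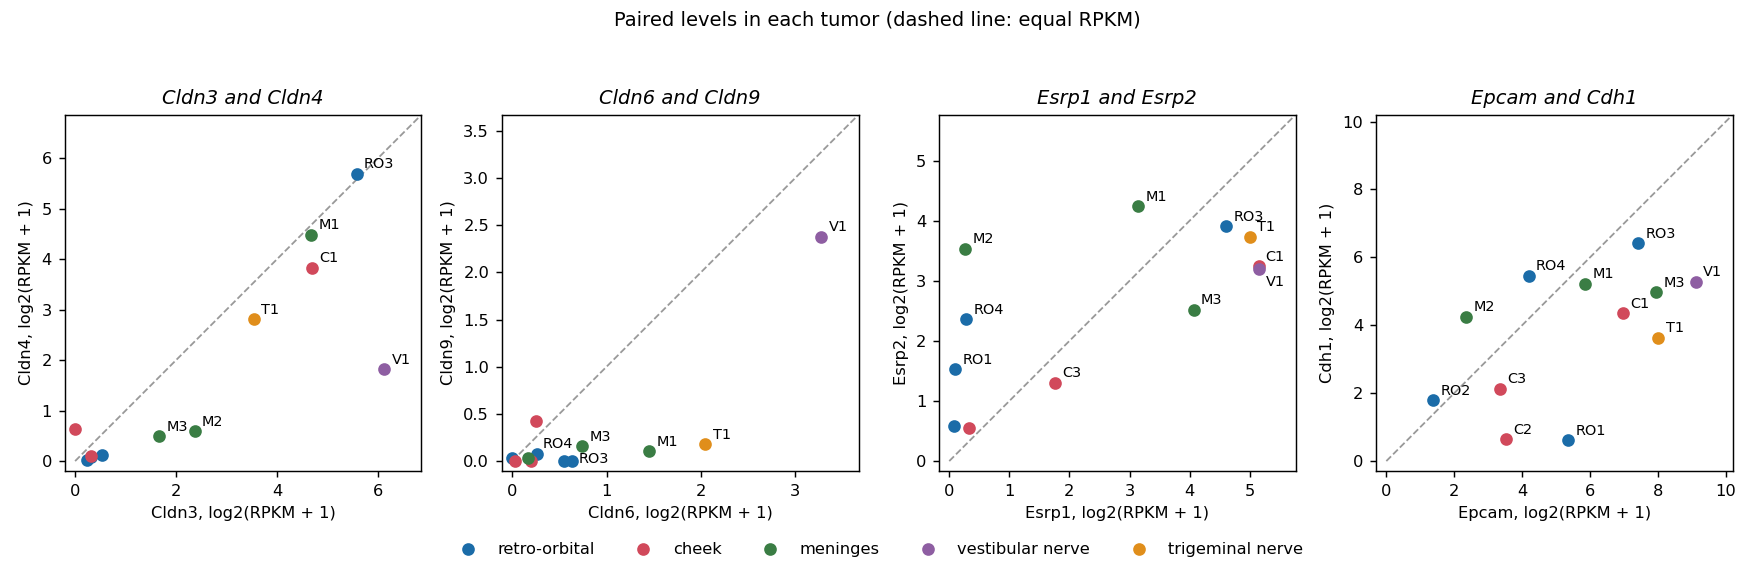
Each point is a tumor, colored by location, with log2(RPKM + 1) of the genes of a pair on the axes and a dashed line where both have equal RPKM (RO, retro-orbital; C, cheek; M, meninges; V, vestibular nerve; T, trigeminal nerve). V1 lies far below the line for Cldn3 and Cldn4 (68.8 against 2.53 RPKM), M2 lies near the left edge for Esrp1 and Esrp2 (0.201 against 10.6 RPKM), and RO1 lies far below the line for Epcam and Cdh1 (40.1 against 0.535 RPKM).

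No junction gene was called as different between locations. In the 10 tumors of the 3 locations with replicates, the ranges of retro-orbital, cheek and meninges tumors overlapped for every one of the 10 genes. The share of all genes with such overlap was not counted, so this does not set the 10 genes apart. On the log2(RPKM + 1) scale, limma called none of the 9 genes that passed the filter of 1 RPKM in at least 3 tumors, with adjusted p from 0.486 (Esrp2) to 0.985 (Cldn4), and none of the 9 had an unadjusted p under 0.05. Over all 14745 genes tested, 6 were called, which is 0.0407%, and 2110 (14.3%) had an unadjusted p under 0.05. At such a share of calls 0 of 9 does not set the junction genes apart. With tumors that share an identifier taken as correlated, an alternative added after seeing the data, limma called 2805 genes and 0 of the 9. Cldn6 did not pass the filter, and with no filter its adjusted p was 0.538. Exact permutation tests of each gene over the 4200 ways to assign the 10 tumors to the 3 locations gave p from 0.175 (Cldn6) to 0.995 (Cldn7), unadjusted for the 10 tests.

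The largest differences between location means were about the size of the spread within a location. For Cdh1, the mean of meninges tumors was above that of cheek tumors by 2.43 ± 1.48 (difference of means on the log2(RPKM + 1) scale ± SE), beside a within-location SD of 2.11. For Grhl2 it was above that of retro-orbital tumors by 2.12 ± 1.45, beside an SD of 2.19. For Esrp2, the gene with the lowest adjusted p, the mean of meninges tumors was above that of cheek tumors by 1.73 ± 0.912, and for Ocln by 1.39 ± 0.771, beside SDs of 1.27 and 1.05. Epcam differed by no more than 0.793 ± 1.64, between meninges and retro-orbital tumors. In RPKM, the mean of Epcam was 57.4 ± 77.1 in retro-orbital tumors (SD, n = 4), 47.9 ± 65.8 in cheek tumors (SD, n = 3) and 102 ± 127 in meninges tumors (SD, n = 3). That of Cdh1 was 32.7 ± 39.9, 7.80 ± 10.2 and 28.2 ± 9.28 in the same order, with the tightest spread in the meninges. The mean of Cldn6 was 0.302 ± 0.251, 0.120 ± 0.0878 and 0.845 ± 0.820.

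**Figure D3:**
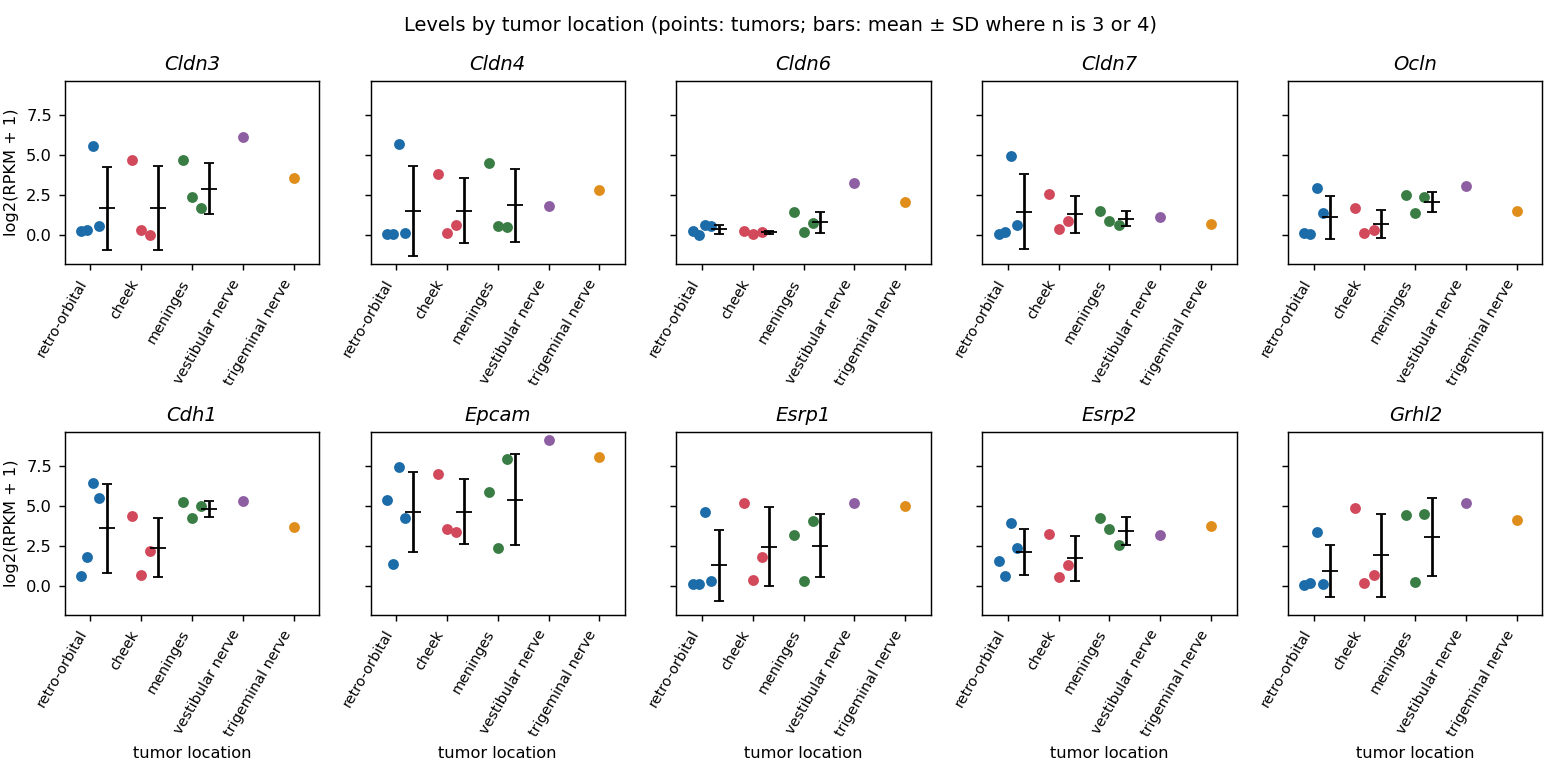
Level of each gene as log2(RPKM + 1) by tumor location, 1 point per tumor, with black bars for the mean ± SD in the locations with 3 or 4 tumors. The points of the 3 replicated locations overlap for all 10 genes (the share of all genes with such overlap was not counted). The single vestibular nerve tumor is above every other point for Cldn3, Cldn6, Ocln, Epcam and Grhl2.

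The 10 genes varied widely between tumors. On the log2(RPKM + 1) scale the 12 values had an SD of 2.49 for Epcam and 2.31 for Cldn3, at the 99.8th and 99.6th percentile of all gene rows, and even Cldn6, the least variable of the 10, was at the 90.9th. The median of the 10 genes was 1.98, beside a median of 0.351 over all 24060 rows, many of which are close to 0. Other epithelial lists spread as widely, with a median SD of 2.35 for simple epithelial keratins (4 genes), 1.93 for stratified epithelium (9 genes), 1.76 for the other epithelial regulators and markers and 1.56 for desmosome genes. Between location means the median range of the 9 tested genes was 1.24, beside 0.542 over all genes tested. The 10 genes were picked with earlier results of these tumors known, so these numbers describe them and no test was made.

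**Figure D4:**
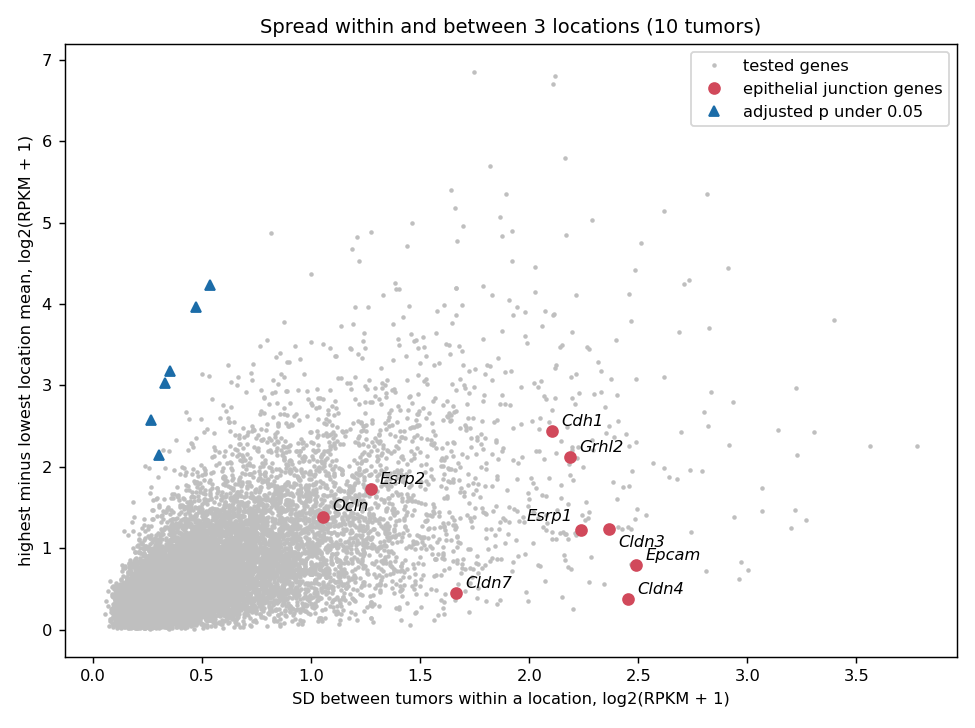
Each point is a gene tested over the 10 tumors of 3 locations, with the SD between tumors of the same location on the horizontal axis and the distance between the highest and lowest location mean on the vertical axis, both in log2(RPKM + 1). The 9 tested junction genes (red) lie to the right, at a within-location SD of 1.05 (Ocln) to 2.49 (Epcam), whereas the 6 called genes (blue triangles) lie at the left.

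Retro-orbital tumor 3 and cheek tumor 1 also had the most RNA of some airway and olfactory genes. Bpifa1, a secreted protein of airway and nasal glands, was at 2390 RPKM in retro-orbital tumor 3 and 145 RPKM in cheek tumor 1, and at 1.30 to 4.11 RPKM in the 10 others. Cyp2a5, an enzyme of the olfactory mucosa, was at 386 and 11.5 RPKM in these 2 tumors and below 1 RPKM in the others, and Foxj1, a regulator of motile cilia, was at 39.2 RPKM in retro-orbital tumor 3 but at 3.71 RPKM in cheek tumor 1, below the 4.10 RPKM of the trigeminal nerve tumor. Omp and Cnga2 of olfactory neurons were below 1 RPKM in all 12 tumors. Without these 2 tumors, a choice made after seeing the data, the remaining retro-orbital tumors had at most 0.442 RPKM of Cldn3, 0.0937 RPKM of Cldn4 and 0.103 RPKM of Grhl2, and the remaining cheek tumors at most 0.243, 0.544 and 0.566 RPKM. Meninges tumors were then higher than cheek tumors by 2.75 ± 0.791 for Cldn3, 2.50 ± 0.654 for Esrp2 and 1.88 ± 0.513 for Ocln (difference of means on the log2(RPKM + 1) scale ± SE). Each of the 2 tumors left out had the highest level of every junction gene at its location. Leaving them out thus selects on the tested values, so the SEs and p-values without them cannot test a location difference. The cheek group then held only cheek tumors 2 and 3, which share the first part of their identifier, and the SEs take them as independent. Still none of the 6 genes that passed the filter was called by limma, with adjusted p of 0.107 (Esrp2), 0.108 (Ocln), 0.111 (Cldn3), 0.242 (Cdh1), 0.277 (Esrp1) and 0.598 (Epcam), while 459 of 14146 genes were called, 3.24%. With cheek tumors 2 and 3 also averaged to 1 sample, whose spread is then taken from the other groups, 0 of 13984 genes were called by limma and 1577 had an unadjusted p under 0.05, and the adjusted p of Esrp2, Cldn3 and Ocln were 0.386, 0.391 and 0.397. Of the 6 in the fit without averaging, Esrp2, Ocln and Cldn3 had an unadjusted p under 0.05, beside 24.6% of all genes. By exact permutation Esrp2 had p = 0.0429, unadjusted, the only one of 10 under 0.05. The part of airway cells in the levels of retro-orbital tumor 3 and cheek tumor 1 was not tested.

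Other marker lists moved with some tumors and not with others. Summed over 9 genes, stratified epithelium was at 2.68 to 236 RPKM in retro-orbital tumors, 65.6 to 770 in cheek tumors and 5.73 to 395 in meninges tumors, and at 10.8 and 6.45 RPKM in the vestibular and trigeminal nerve tumors. Cheek tumor 3 had 116 RPKM of Krt1 and 270 RPKM of Krt14, keratins of the differentiated and basal epidermis, yet only 9.19 RPKM of Epcam and 0.566 RPKM of Grhl2. Meninges tumor 1 had 173 RPKM of Krt5 and 163 RPKM of Krt14. Meninges tumor 3 and both nerve tumors, with 245, 551 and 258 RPKM of Epcam, had 0.745, 0.636 and 0.626 RPKM of Krt14, 2.19, 2.04 and 1.41 RPKM of Bpifa1, and at most 1.02 RPKM of Krt19. Other genes of these lists were not all as low in the same 3 tumors. Krt5 was at 7.29, 3.20 and 0.647 RPKM, Krt10 at 2.82, 3.35 and 2.26 RPKM, and Foxj1 at 2.96, 2.59 and 4.10 RPKM. Of the simple epithelial keratins, Krt8 was at 44.8, 35.2 and 18.4 RPKM and Krt18 at 5.30, 20.99 and 17.98 RPKM. Krt7 was low there, as Krt19 was, at 0.387 RPKM or less. The part of other epithelia in the junction gene levels of these 3 tumors was not tested. The vestibular nerve tumor had 96.1 RPKM of Ttr, made by the choroid plexus, which was at or below 2.74 RPKM in the 11 others. From the same list it had 3.89 RPKM of Kcnj13, 2.77 of Aqp1, 1.28 of Folr1, 0.809 of Clic6, 0.640 of Kl and 0.289 of Otx2. Kcnj13 and Aqp1 were at 1 RPKM or more in all 12 tumors. Krt14, Krt5, Krt1, Krt10, Krt19, Bpifa1, Cyp2a5, Foxj1, Omp, Cnga2, Ttr, Otx2, Clic6 and Slc6a13 were picked from the marker lists after their values were seen.

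**Figure D5:**
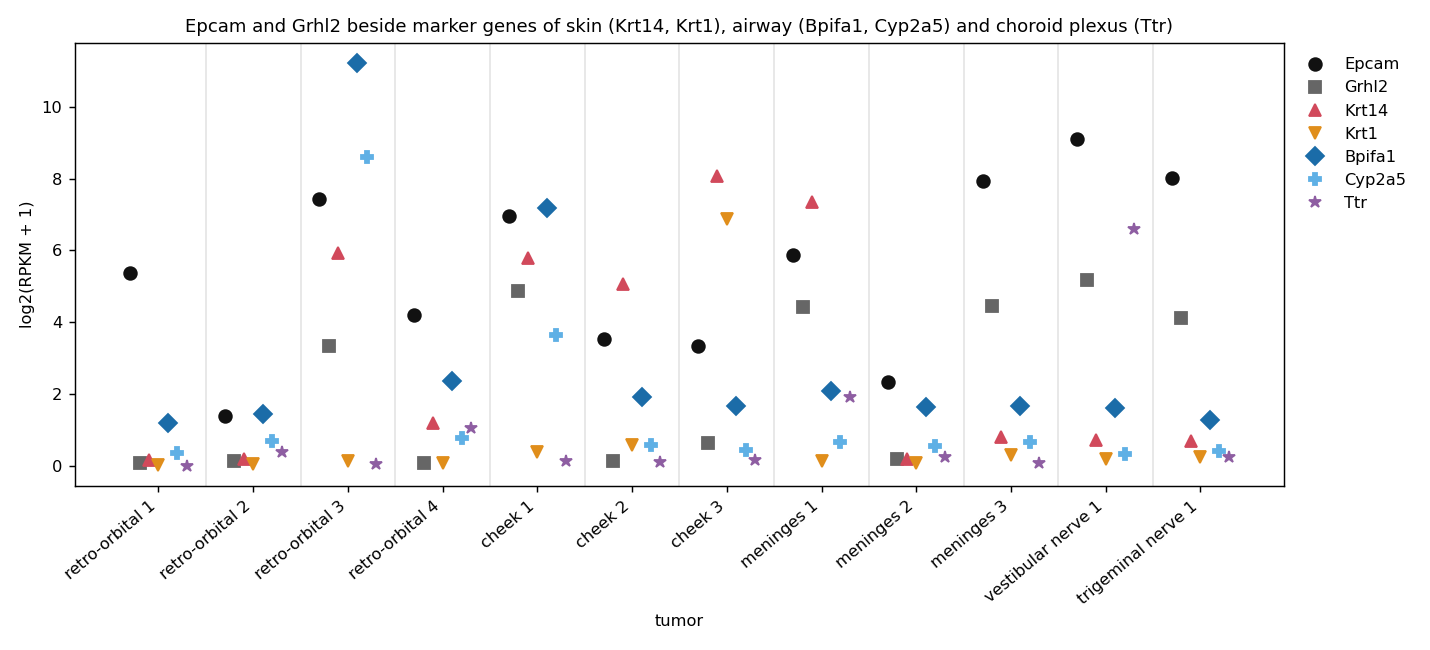
Level of Epcam and Grhl2 beside marker genes of skin (Krt14, Krt1), airway (Bpifa1, Cyp2a5) and choroid plexus (Ttr) in each tumor, as log2(RPKM + 1). In retro-orbital tumor 3 and cheek tumor 1 all of Epcam, Grhl2, Krt14 and Bpifa1 are high, whereas in meninges tumor 3 and the trigeminal nerve tumor Epcam and Grhl2 are high with Krt14 below 1 RPKM.

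Simple epithelial keratins (4 genes) summed to between 1.47 and 510 RPKM. Krt8 was at 129 RPKM in retro-orbital tumor 3, while Krt18 reached its highest levels, 408 and 385 RPKM, in cheek tumors 2 and 3, where 1 and 4 of the 10 junction genes reached 1 RPKM. The gland list (8 genes) was at 2.14 to 2500 RPKM in retro-orbital, 170.1 to 242 in cheek and 9.47 to 71.9 in meninges tumors, through Bpifa1 and the water channel Aqp5, and the ciliated and olfactory list (7 genes) at 1.87 to 483, 1.52 to 19.3 and 4.81 to 9.45 RPKM. Within a location these sums thus differed many-fold between tumors. The choroid plexus list (7 genes) was at 17.4 to 112, 17.2 to 56.9 and 9.96 to 16.2 RPKM, and at 106 and 12.9 RPKM in the nerve tumors. Endothelial genes (8 of 8 at 1 RPKM or more in every tumor) summed to 25.05 to 106 RPKM and leukocyte genes (5) to 79.1 to 423 RPKM. The leptomeningeal genes (8) summed to 10.9 to 682 RPKM in retro-orbital, 19.6 to 48.5 in cheek and 93.3 to 176 in meninges tumors. Of these genes Crabp2 and Aldh1a2 reached 1 RPKM in all 12 tumors, Foxc1 in 11, Ptgds in 10, Dpp4 in 4 and Slc22a8 in 1. The transporters Slc6a13 and Slc22a6 stayed below 1 RPKM in all 12. The Schwann cell and myelin genes (7) summed to 32.5 to 147, 40.8 to 48.2 and 135 to 209 RPKM.

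Other junction genes were tested in the same fit, in which 0.0407% of all genes were called. Of the other claudins 21 were in the files, 10 were tested and 0 were called. The median SD over the tumors of all 21, tested or not, was 0.518 on the log2(RPKM + 1) scale, beside 1.98 for the 10 genes above. Many of the 21 were near 0, with a median level of 0.241 RPKM beside 4.01 RPKM for the 10 genes. Near 0 this scale leaves little room for spread, so the 2 SDs are not a like comparison. Their most abundant members were Cldn12 (median 11.3 RPKM, SD 0.504), Cldn5 of endothelium (6.40 RPKM, SD 1.35) and Cldn11 of myelin and arachnoid (5.77 RPKM, SD 1.70). Of the tight junction plaque and polarity genes 17 of 17 were tested and 0 called, and the scaffold gene Tjp1 and the adhesion molecule gene F11r had medians of 45.1 and 27.6 RPKM. Of the adherens junction genes 14 of 14 were tested and 0 called, and the mesenchymal cadherin Cdh11 had a median of 137 RPKM beside 18.7 RPKM for Cdh1. Of the desmosome genes 11 of 13 were tested and 0 called, with a median SD of 1.56 over all 13, and Ppl, Dsc2 and Perp leading. An unadjusted p under 0.05 was seen for 3 of the 10 claudins, 3 of the 17 plaque and polarity genes, 3 of the 14 adherens junction genes and 0 of the 11 desmosome genes, beside 14.3% of all genes. With so few calls over all genes, 0 called does not set these lists apart.

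The epithelial regulators and markers outside the 10 genes (19) had a median SD of 1.76, and 0 of the 17 tested were called. Spint2, an inhibitor of membrane serine proteases, was at 118 RPKM in the vestibular nerve tumor, 112 RPKM in retro-orbital tumor 3 and 0.955 RPKM in retro-orbital tumor 2, and Lsr and Spint1 had medians of 20.7 and 15.6 RPKM. Of the genes of the mesenchymal transition (12), 11 or 12 were at 1 RPKM or more in each tumor. In all tumors 10 of the 12 were, beside 10644 of all 24060 gene rows. Snai2 reached 1 RPKM in 11 tumors and Twist2 in 5. Vim, the intermediate filament of mesenchymal cells, was at 114 RPKM in the vestibular nerve tumor, its lowest level, and at 3001 RPKM in retro-orbital tumor 1. Fn1 (fibronectin) was also lowest in the vestibular nerve tumor, at 11.9 RPKM, and highest in cheek tumor 3, at 1184 RPKM. Twist1 ranged from 10.9 RPKM (retro-orbital tumor 4) to 192 RPKM (meninges tumor 1). Of these 12 genes 0 were called by location by limma, beside 0.0407% of all genes, and 4 had an unadjusted p under 0.05, beside 14.3% of all genes.

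Genes with the pattern most like a junction gene were ranked by Pearson correlation of log2(RPKM + 1) over the 12 tumors, among 16935 genes that reached 1 RPKM in any tumor. For Grhl2 they were Epn3, Kdf1, Ovol2, Macc1 and Hunk, with r from 0.982 to 0.996 (Spearman's rho 0.825 to 0.937), and without the 2 tumors farthest from the median r was 0.975 to 0.997. For Epcam they were Lmntd2, Fat1, Dync2h1, Rhbdf1 and Erbb3 (r 0.934 to 0.953, rho 0.867 to 0.965, and 0.908 to 0.948 without 2 tumors). Ovol2 is a transcription factor of epithelial cells, and Erbb3 a neuregulin receptor of epithelium and Schwann cells. For Cdh1 they were Rab11fip1, Mxd1, Zgpat, Myo6 and Ccdc85c (r 0.927 to 0.945, rho 0.853 to 0.979, and 0.893 to 0.930 without 2 tumors). For Ocln they were Pkp4, Ermn, Lbp, Acer2 and Ccar2 (r 0.944 to 0.965, rho 0.860 to 0.965, and 0.916 to 0.969 without 2 tumors). For Cldn6 they were Padi3, Nr2f1, Epor, Tinag and Cbln3 (r 0.926 to 0.977, rho 0.748 to 0.944). All 5 had their highest level in the vestibular nerve tumor, and without the 2 nerve tumors r fell to between 0.560 and 0.870. No gene was among the closest 5 of more than 1 of these 5 junction genes. These values pick the highest of many genes over 12 shared libraries, so they carry no test.

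Of the pairs of tumors that share the first part of their identifier, cheek tumors 2 and 3 were the closest in these genes. Differences here are absolute and on the log2(RPKM + 1) scale, which shrinks those of genes near or below 1 RPKM. Cheek tumors 2 and 3 differed by a median of 0.499 over the 10 genes and by at most 1.48. Esrp1, at 0.263 and 2.38 RPKM in these 2 tumors, differed by 1.42 on this scale. Cheek tumor 1 and meninges tumor 1 differed by a median of 0.928 and at most 2.005. For retro-orbital tumor 3 and the trigeminal nerve tumor the median was 1.44, with at most 4.27, for Cldn7. Over all 66 pairs of the 12 tumors the median difference ran from 0.0591 (retro-orbital tumor 2 and cheek tumor 2) to 4.58, with a middle value of 1.65. All 3 pairs were thus below the middle of all pairs, and 6 pairs with different identifiers were closer than cheek tumors 2 and 3. Those 6 pairs were all among retro-orbital tumors 1, 2 and 4, cheek tumor 2 and meninges tumor 2, where 1 to 5 of the 10 genes reached 1 RPKM. Genes near 0 in both tumors differ little on this scale, so the ranking says little about shared identifiers.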

How the data were processed

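The 12 files hold RPKM values per gene, deposited by the authors. They aligned paired reads of ribosome-depleted, stranded libraries to mm10 (the same build as GRCm38) with STAR, counted uniquely mapped fragments on RefSeq genes with HTSeq and scaled them. The submitters' processing notes also name bcl2fastq 2.17, edgeR and limma. The gene lengths, the totals used for scaling and the strand setting are not given in the sources used here. Since 1 fragment of a gene adds a fixed step to its RPKM, the number of fragments behind each value was worked out, at the smallest gene length that made all 12 values whole. The recovery of the totals was tested on simulated data, and that of gene lengths and fragment numbers was not. The lengths found for the junction genes matched no GENCODE length of these genes. The totals were not checked against the read numbers in the paper. Gene positions are from GENCODE M21, promoters from RefSeq. Symbols of 27 rows had been turned into dates and were not named.

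Location was tested with limma 3.58.1 (R 4.3.3) on log2(RPKM + 1) of genes at 1 RPKM in at least 3 of the 10 tumors of 3 locations, with a moderated F test (trended, robust) and Benjamini-Hochberg adjustment at 0.05. Such a fit understates changes of low genes. In simulated data of 14417 genes it recovered 66 of 100 genes changed by 2 and 93 of 100 changed by 4 on the log2(RPKM + 1) scale. The changed genes were drawn at random from those with a mean above 1 on that scale. Over all genes tested the median within-location SD was 0.415, beside 1.05 to 2.49 for the junction genes. These rates therefore do not hold for the junction genes. Exact permutation tests were run per junction gene in Python 3.11.15 with numpy 2.4.6, pandas 2.3.3 and scipy 1.17.1. The genes and lists were chosen with earlier results of these data known. Named are the 10 genes, the 3 most abundant genes by median of a list (not each is printed), the 5 genes most like Cldn6, Cdh1, Epcam, Grhl2 and Ocln, and Smarcb1. Pseudocount, filter, scaling, prior and fitted tumors were varied. Values of some genes are not reported here.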

Additional observations from a re-analysis of the deposited data

Results flagged for a closer look

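In the 4 retro-orbital tumors, Cldn3, Cldn4, Cldn7, Esrp1 and Grhl2 were each far higher in tumor 3 than in the other tumors of that location. On the log2(RPKM + 1) scale the gap to the next tumor took up 0.945 of the whole range for Cldn3, 0.982 for Cldn4, 0.884 for Cldn7, 0.953 for Esrp1 and 0.976 for Grhl2, above Dixon's critical value of 0.829 for 4 tumors. Of 11 genes screened (the 10 junction genes and Smarcb1) 5 were above it, and chance flags about 1 in 20 groups, but the 5 share the same tumor and are not independent. In that tumor Bpifa1 was at 2390 RPKM and Krt5 at 87.0 RPKM, and their part in these levels was not tested. Epcam, Cdh1, Esrp2, Ocln and Cldn6 showed no such gap.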

How the results depend on the processing

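None of the junction genes was called by location by limma in the alternatives in which it was tested, 22 in all, 4 of them added after seeing the data, with adjusted p between 0.107 and 0.997. Cldn6 passed the filter in 2 fits and Cldn4 and Cldn7 in 18 of 23. The number of all genes called (6) moved to 10 with no filter, to 19 without trend and robust prior, to 0 with cheek tumors 2 and 3 averaged, to 459 without retro-orbital tumor 3 and cheek tumor 1, an alternative added after seeing the data, and to 0 when cheek tumors 2 and 3 were also averaged. Leaving out 1 tumor at a time gave 0 (without cheek tumor 2, cheek tumor 3 or meninges tumor 1) to 198 (without cheek tumor 1), with 56 without retro-orbital tumor 3, 14 without retro-orbital tumor 1 and 3 without meninges tumor 3. Of the 10 exact permutation tests 0 had p under 0.05 with all 10 tumors. Leaving out 1 tumor gave 0 to 1, Cldn6 without meninges tumor 2 (exact permutation p = 0.0143). Leaving out retro-orbital tumor 3 and cheek tumor 1 gave 1, Esrp2 (exact permutation p = 0.0429). This choice selects on the tested values, since both were highest in every junction gene at their locations. With a pseudocount of 0.1 the difference of Ocln grew to 2.23 between meninges and retro-orbital and to 2.66 between meninges and cheek tumors. Leaving out 1 tumor moved the median level of 3 of the 10 genes by over 1.5 times, from 4.86 RPKM to between 0.566 and 9.15 for Grhl2, from 5.11 to between 2.38 and 7.83 for Esrp1 and from 0.332 to between 0.196 and 0.467 for Cldn6. With the first part of the identifier as a block (limma, estimated correlation 0.930, which rests on 2 pairs, added after seeing the data) 2805 of 14745 genes were called over 10 tumors. With all 12 tumors 2808 of 14745 were called, and again 0 of the 9 junction genes tested. The difference of meninges from cheek tumors over 10 tumors changed sign for Epcam (0.77 to -0.88) and Grhl2 (1.14 to -0.29), and for Esrp1 it went from 0.08 to -1.76. The causes were not tested. Whether differences of the size seen could be detected at the junction genes' within-location SD of 1.05 to 2.49 was not tested.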
